A study of Caenorhabditis elegans with 22 samples.

Results

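The cytosolic ribosomal protein genes of Caenorhabditis elegans were taken as every gene whose WormBase name is rpl or rps followed by a number, with or without a paralog number. Of 76 such names, 74 had a row among the 20392 genes of the deposited tables, 43 for the large (rpl) and 31 for the small (rps) ribosomal subunit, and rpl-41.1 and rpl-41.2 were not analysed here. The members were spread over the genome, with 21 on chromosome I, 9 on II, 18 on III, 16 on IV, 8 on V and 2 on X. Their annotated exons covered between 247 bp (rpl-39) and 1295 bp (rpl-3), with a median of 652 bp, against a median of 1106 bp for all genes.

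The cytosolic ribosome is built from a large and a small subunit, each a scaffold of ribosomal RNA clothed in many small proteins that are mostly needed in equal numbers. Messenger RNAs of these proteins are short and among the most abundant in growing cells, and in animals their output is tied to growth through TOR signalling. Most proteins are made from a single gene, but a few are encoded by a pair of paralogs, and in several animals such paralogs are used in different tissues.

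The study asked what MET-2 and SET-25, the methyltransferases that place methyl groups on lysine 9 of histone H3, do in differentiated tissues. RNA was purified from sorted cells of L3 larvae and turned into polyA-selected Smart-Seq2 libraries, with 2 independent biological replicates in each of 11 groups (22 libraries). Body wall muscle cells were sorted by the red fluorescent reporter of gwIs4 [Pmyo-3::RFP; Pbaf-1::GFP::lacI], driven by a myosin promoter, in wild-type N2 (Bristol), met-2(n4256), set-25(n5021) and met-2(n4256) set-25(n5021) animals, and RFP-negative cells of the N2 strain formed the non-muscle group. Seam cells, a row of epidermal stem-like cells, carried both scm::gfp (wIs51) and ajm-1::mCherry (mjIs15) and were sorted as double-positive cells from the same 4 genotypes. The last 2 groups were muscle from met-2::degron animals that express the plant F-box protein TIR1 from the ubiquitous eft-3 promoter, grown without or with auxin, which triggers degradation of the tagged MET-2. The study's methods describe muscle sorting in general as by myo-3-driven RFP, and the genotype listed for the met-2::degron strain names no such reporter.

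Library totals ran from 11883702 to 24752059 counts, and genotype muscle with non-muscle, seam and degron libraries came in 3 separate tables. The summed level of 12 muscle markers was 112511 to 141269 CPM (a gene's counts scaled to a common library total) in every muscle library, 16558 and 20232 CPM in non-muscle cells and 2912 to 4820 CPM in seam cells. The 12 seam cell markers summed to 2609 to 6119 CPM in seam cells and to 100.1 to 123 CPM in muscle of the 4 genotypes. Reads on met-2 and set-25 remained in the mutants (met-2: 26.0 and 27.3 CPM in met-2 muscle and 40.9 and 35.9 CPM in double mutant muscle, against 42.8 and 46.5 CPM in N2 muscle), and since the exons lost in the deletions were not in the sources used here, these counts do not check the genotype labels. The degron acts on the protein, so the met-2 transcript checks nothing there.

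The ribosomal protein genes took 3.23% and 3.95% of all counts in the 2 N2 muscle libraries. With library totals of this size the counting error was small (95% Wilson interval 3.22 to 3.24% for the first library), and this interval covers counting error only, since reads were counted without molecular identifiers. In mutant muscle it amounted to 2.99% and 3.54% (met-2), 4.17% and 2.99% (set-25) and 2.69% and 3.23% (double mutant). Both double mutant libraries lay below both N2 libraries, but the higher of them and the lower N2 library both rounded to 3.23%. The single mutants overlapped with N2, and the 2 set-25 libraries alone spanned most of the range.

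In seam cells the share was more than double that of muscle in every library. N2 seam cells gave 11.6% and 10.6%, met-2 seam cells 9.96% and 10.6%, set-25 seam cells 11.7% and 10.8%, and double mutant seam cells 13.3% and 12.5%. Both double mutant seam libraries lay above the other 6 seam libraries. Averaged over 4 genotypes, the share was 3.35 ± 0.506% (SD, n = 8) in muscle and 11.4 ± 1.13% (SD, n = 8) in seam cells, a difference, muscle minus seam cells, of -8.02 percentage points (exact permutation test within genotype, two-sided, p = 0.00154, the smallest this design can give). Because each tissue came from its own table and sort, tissue and experiment cannot be told apart here.

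Muscle from the degron strain stood with seam cells, not with the muscle of the 4 genotypes. Its share was 11.8% and 11.7% without auxin and 12.5% and 11.1% with auxin, above all 8 genotype muscle libraries. The muscle markers of these libraries summed to 113384 to 122321 CPM, within the range of the other muscle libraries, and their seam cell markers to 75.8 to 82.5 CPM. Markers of intestine, neurons and hypodermis were higher than in genotype muscle. The 8 intestine markers summed to 337 to 457 CPM in degron muscle, against 87.9 to 124 CPM in genotype muscle. For the 8 neuron markers these ranges were 154 to 220 and 25.6 to 51.5 CPM, and for 6 hypodermis markers 50.1 to 81.5 and 9.0 to 16.6 CPM. The part of such cells in the share was not tested. One muscle marker, the myosin gene myo-3 whose promoter drives the sorting reporter of the other muscle groups, was lower in degron muscle without auxin than in N2 muscle, at 1780 and 1785 against 4457 and 4100 CPM (log2 change -1.54 with TMM, edgeR adjusted p = 0.000116, and -1.26 with library totals). Non-muscle N2 cells lay in between, at 5.75% and 6.99%. Between any pair of these groups the exact test of 2 against 2 libraries cannot go below p = 0.333, so these shares are given as values.

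**Figure D1:**
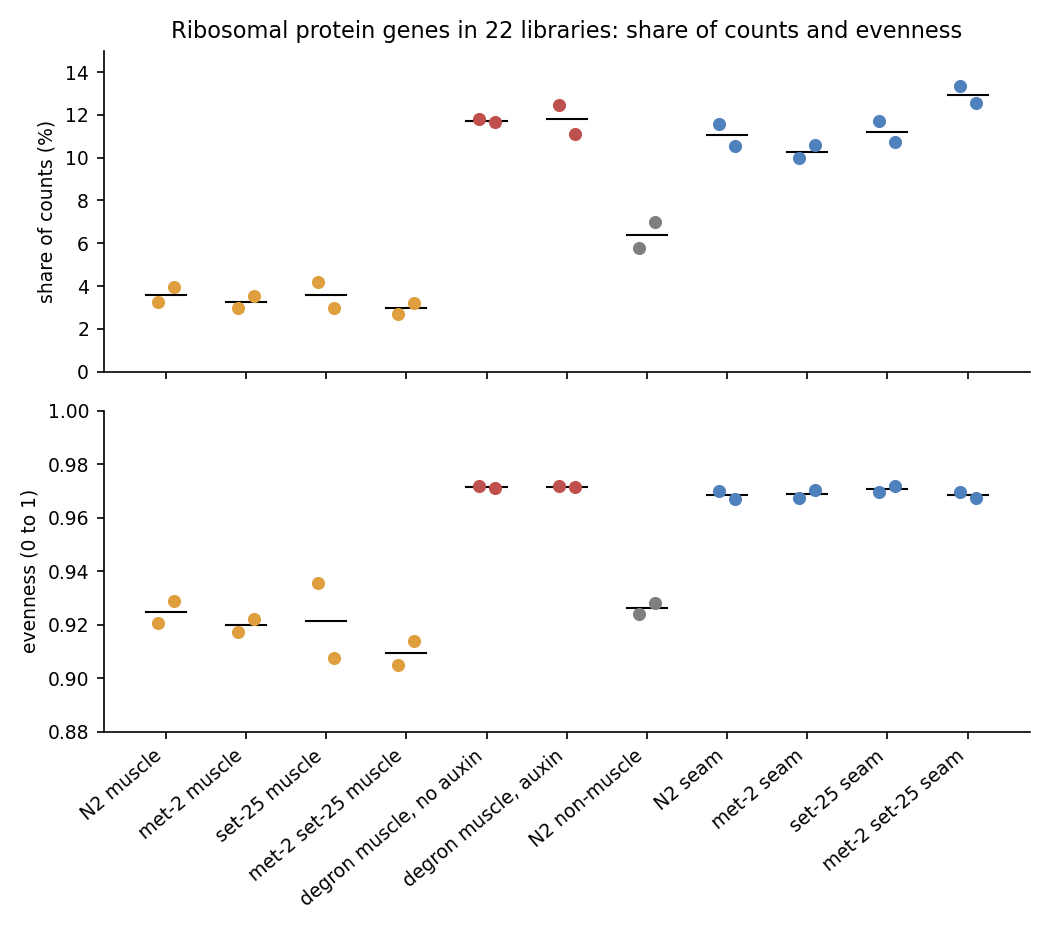
Share of counts on ribosomal protein genes (percent, upper panel) and evenness of the members' levels (lower panel) in each of the 22 libraries; points are libraries, horizontal lines group means, and colours mark muscle of the 4 genotypes (yellow), degron muscle (red), non-muscle cells (grey) and seam cells (blue). The evenness axis does not start at 0. The 8 genotype muscle libraries lie between 2.69 and 4.17%, and all seam and degron muscle libraries at 9.96% or above.

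The members were also less evenly expressed in genotype muscle. Levels were compared per length, as CPM divided by the exonic length in kilobases (RPKM), and evenness was taken as the Shannon entropy of the members' shares divided by its maximum, so that 1 means equal levels. N2 muscle had an evenness of 0.920 and 0.929, met-2 muscle 0.917 and 0.922, set-25 muscle 0.936 and 0.907 and double mutant muscle 0.905 and 0.914. In the 8 seam libraries it ran from 0.967 to 0.972, with no overlap with muscle (means 0.919 ± 0.0103 and 0.969 ± 0.00169, SD, n = 8 each; exact permutation test, two-sided, p = 0.00154). Degron muscle was at 0.971 or 0.972 in each of its 4 libraries, and non-muscle cells at 0.924 and 0.928. Expressed as the number of equally expressed genes that would give the same entropy, muscle used 49.2 to 56.1 genes, seam cells 64.2 to 65.6 and degron muscle 65.4 to 65.6.

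The most abundant members took a larger part of the total in genotype muscle and non-muscle cells. The 5 most abundant members made 22.7 to 24.3% of the summed RPKM in genotype muscle, 23.9% in non-muscle cells, and only 14.5 to 15.1% in seam cells and 14.4 to 14.5% in degron muscle. The balance of the subunits moved far less: the log2 ratio of summed rpl to summed rps levels was 0.33 ± 0.05 in muscle and 0.29 in seam cells (difference 0.04, exact permutation test, two-sided, p = 0.0370), and 0.24 in degron muscle. The test of this ratio did not pass without either replicate of N2, met-2 or set-25 seam cells or of double mutant muscle, with p up to 0.140 (exact permutation test) without double mutant muscle replicate 1.

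In N2 muscle the highest level belonged to rpl-12 (WBGene00004424), which encodes the large subunit protein uL11 at the base of the stalk where elongation factors bind. Muscle libraries held 4105 and 5337 RPKM of it (N2), 3992 and 4213 RPKM (met-2), 5248 and 4591 RPKM (set-25), and 3721 and 4324 RPKM (double mutant). It was 8338 and 10585 RPKM in non-muscle cells, 5888 and 6376 in degron muscle without auxin, 6340 and 6007 with auxin, and 6045 and 6899 in N2 seam cells. This gene was first in rank in N2 muscle, non-muscle and N2 seam cells, and second in degron muscle without auxin. Its level in every seam and degron library was above every genotype muscle library, and the ratio of its seam to its muscle median was the lowest of the 73 members that passed the filter on low counts. Next in N2 muscle came rpl-27, the small subunit gene rps-16 (uS9), rpl-4, whose protein reaches into the peptide exit tunnel, and rps-3, whose protein lines the mRNA entry channel.

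The order of the members was not the same across experiments. The clearest case was rps-27 (WBGene00004496), which encodes the zinc-binding small subunit protein eS27. Muscle libraries held 266 and 417 RPKM of it (N2), 237 and 281 RPKM (met-2), 492 and 197 RPKM (set-25), and 178 and 255 RPKM (double mutant). It was 6519 and 6542 RPKM in degron muscle without auxin, 6792 and 6073 with auxin, 4684 and 4593 in N2 seam cells, and 613 and 843 in non-muscle cells. In rank among the members it was therefore 55 in N2 muscle and 47 in non-muscle cells, but 1 in degron muscle and 3 in N2 seam cells.

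The shortest member, rpl-39 (WBGene00004453), whose protein lines the exit tunnel, behaved likewise. It was at 125 and 219 RPKM in N2 muscle and at 68.6 and 90.8 RPKM in the double mutant, against 2466 and 2281 RPKM in N2 seam cells and 2642 and 2514 RPKM in degron muscle without auxin. By contrast, rps-16 (WBGene00004485) held 1510 and 2079 RPKM in N2 muscle, 2993 and 3770 in non-muscle cells, 2472 and 2458 in N2 seam cells, and 2462 and 2547 in degron muscle without auxin, which placed it at rank 3 in N2 muscle but 37 in degron muscle. The rank correlation of the members' levels with N2 muscle was 0.988 to 0.999 for the mutant muscle groups and 0.966 for non-muscle cells, and 0.705 for N2 seam cells and 0.669 for degron muscle without auxin. These are descriptions over members of the same libraries.

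**Figure D2:**
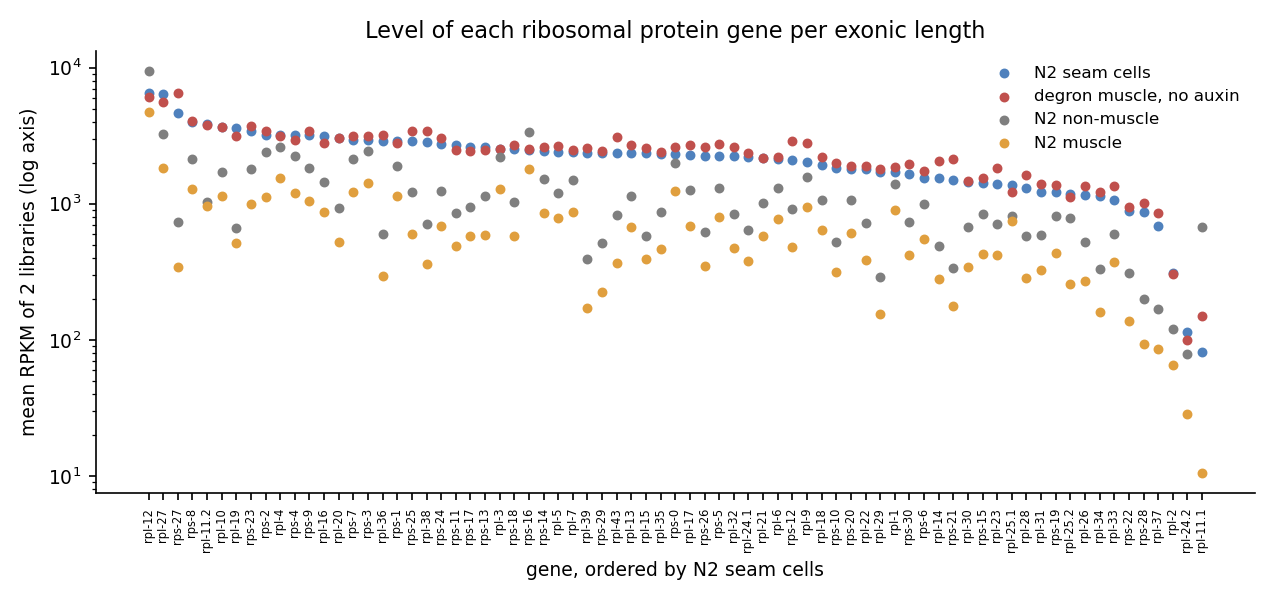
Level of each of the 73 tested ribosomal protein genes (mean RPKM of 2 libraries, log axis) in N2 seam cells (blue), degron muscle without auxin (red), N2 non-muscle cells (grey) and N2 muscle (yellow), ordered by N2 seam cells. Blue and red points nearly coincide, all yellow points lie lower, and rps-27, rpl-39 and rpl-29 lie far below their neighbours in yellow and grey.

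At the low end, rpl-42 had 0 counts in 20 libraries and 32 and 9 counts in the 2 non-muscle libraries, and was the only member that did not pass the filter on low counts. A count of 0 allows up to 3 counts in a library. The next lowest members in N2 muscle and N2 seam cells alike were rpl-11.1, rpl-24.2, rpl-2 and rpl-37. The level of rpl-2, which encodes the uL2 protein near the peptidyl transferase centre, was 67.4 and 62.7 RPKM in N2 muscle and 338 and 280 RPKM in N2 seam cells. The level of rpl-37 ran from 39.9 to 113 RPKM over the 8 genotype muscle libraries and from 645 to 847 RPKM over the 8 seam libraries.

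The size of the tissue difference followed the length of the transcript. Between N2 muscle and N2 seam cells the median log2 ratio of RPKM was -2.68 for the 19 members under 500 bp, -1.87 for the 22 members of 500 to 700 bp and -1.59 for the 32 longer members. Across members the correlation of this ratio with log2 length was 0.65, against 0.09 across the other genes. Degron muscle without auxin over N2 muscle gave the mirror image, with medians of 2.89, 2.0 and 1.73 in the same length classes (correlation with log2 length -0.65 for members and -0.32 for other genes). Between degron muscle and N2 seam cells the gradient was weak, with medians of 0.21, 0.11 and 0.08 (correlation -0.25). The part of transcript length, RNA quality or library preparation in these differences was not tested.

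Among muscle genotypes, group means showed a gradient of the same sense in the double and met-2 mutants but not in set-25. In double mutant over N2 muscle the median log2 ratio of RPKM was -0.69 for members under 500 bp, -0.41 for those of 500 to 700 bp and -0.23 for longer ones (correlation with log2 length 0.77), and the other genes under 500 bp had a median of -0.62. In met-2 over N2 muscle the medians were -0.40, -0.21 and -0.11 (correlation 0.79). In set-25 over N2 muscle they were 0.02, -0.0036 and -0.01, with a correlation of -0.16. In double mutant over N2 seam cells they were 0.23, 0.22 and 0.22, with a correlation of 0.05. Members under 500 bp held 12.4 to 18.2% of the members' summed RPKM in genotype muscle, 16.7% and 18.1% in non-muscle cells, 26.7 to 27.6% in seam cells and 28.8 to 29.5% in degron muscle. Other genes under 500 bp moved alike, with 0.539 to 1.09% of counts in genotype muscle, 2.07 to 2.70% in seam cells and 2.18 to 2.37% in degron muscle. These correlations run across genes of the same libraries, which are not independent replicates. By library, members under 500 bp held 14.7% and 17.4% of the members' summed RPKM in N2 muscle and 18.2% and 13.9% in set-25. They held 14.4% and 13.7% in met-2 muscle and 12.4% and 13.6% in the double mutant, all below both N2 libraries. The 2 set-25 libraries alone spanned most of the range of genotype muscle. Whether the gradients between genotypes exceed the spread between replicates was not tested.

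**Figure D3:**
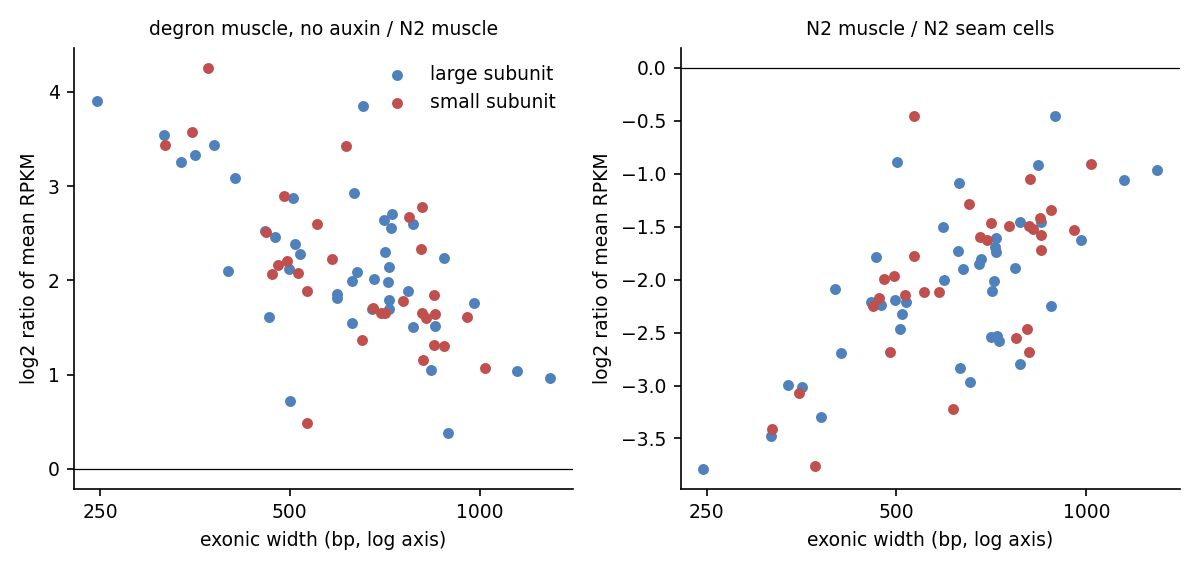
Log2 ratio of mean RPKM (vertical axis) against exonic width in bp (horizontal axis, log scale) for the ribosomal protein genes, for degron muscle without auxin over N2 muscle (left) and N2 muscle over N2 seam cells (right); blue points are large and red points small subunit genes. Of the length classes, members under 500 bp have the median farthest from 0 in both panels (2.89 and -2.68), and single members of the classes overlap.

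To compare members one by one, counts of all genes were fitted with edgeR's quasi-likelihood test, with TMM scaling and Benjamini-Hochberg adjustment over all genes tested, and a call is an adjusted p under 0.05. Of the 73 members that passed the filter, 63 fell and 1 rose in N2 muscle relative to N2 seam cells, where 37.6% of all genes were called lower and 25% higher. The 63 were made up of 36 large and 27 small subunit genes. The median member had a log2 change of -1.08, beside -0.64 for all genes. Scaled to library totals instead, all 73 members were lower and none higher (55.1% of all genes lower, 15.8% higher), with medians of -2.0 and -1.55. Under the stricter rule of the study (adjusted p under 0.01 and a change over 2-fold) 55 members were lower (28.5% of all genes). In bulk libraries such as these, fewer cells of a type and less RNA per cell cannot be told apart.

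The largest falls in muscle were those of the short members described above. The fitted log2 change was -2.86 ± 0.35 for rpl-39 (SE; adjusted p = 5.02e-06), -2.84 ± 0.32 for rps-27 (adjusted p = 1.99e-06) and -2.55 ± 0.33 for rpl-29 (adjusted p = 1.11e-05), the gene of the large subunit protein eL29. The 1 member called higher was rps-16, at 0.46 ± 0.19 (adjusted p = 0.0495), chosen after its values were seen. That direction flipped with library totals, where its change was -0.46. In RPKM scaled to library totals, each of the 73 members was lower in all 8 muscle libraries than in all 8 seam libraries (43.8% of all genes of at least 10 counts on average).

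N2 muscle and N2 non-muscle cells were sorted from the same strain and measured in one table. The direction of this comparison depended on the scaling. With TMM factors 39 members rose and 1 fell in muscle (23.7% of all genes higher and 39.4% lower), with a median log2 change of 0.66 beside -0.57 for all genes. With library totals none rose and 70 fell (10.3% of all genes higher, 68.4% lower), with medians of -0.84 and -2.07. In both scalings the median member lay above the median gene, and 71 members did not overlap between the groups, all lower in CPM in muscle (78.6% of all genes). The TMM count of called members, 40 in all, was 24 without N2 muscle replicate 1, 5 without N2 muscle replicate 2 and 67 without non-muscle replicate 2. The 1 member that fell in both scalings and by far the most was rpl-11.1.

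The comparison of degron muscle without auxin with N2 muscle was added after the data were seen, and strain and experiment cannot be told apart in it. Here 70 members rose and none fell (27% of all genes higher, 22.8% lower), with a median log2 change of 1.80 beside 0.31 for all genes. Library totals gave 71 higher and none lower (31.7% and 17.2% of all genes), and the rule of the study 69 higher (15.1%). The rise was 3.97 ± 0.34 for rps-27 (SE; adjusted p = 9.76e-07), 3.62 ± 0.37 for rpl-39 (adjusted p = 4.17e-06) and 3.54 ± 0.35 for rpl-11.1 (adjusted p = 3.31e-06). The 3 members not called were rpl-12 (0.09, adjusted p = 0.688), rps-16 (0.20, adjusted p = 0.431) and rpl-25.1 (0.44, adjusted p = 0.0968). In RPKM all 73 members were higher in the 4 degron libraries than in the 8 genotype muscle libraries, against 33.5% of all genes.

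A second added comparison set degron muscle without auxin against N2 seam cells. With TMM 71 members rose (27.3% of all genes higher, 36.7% lower; median 0.63 beside -0.21 for all genes), and with library totals 12 (19.4% higher, 46.5% lower; median 0.10 beside -0.72). The largest rises with TMM were 1.38 ± 0.23 for rpl-11.1 (adjusted p = 0.000178), 1.04 ± 0.13 for rps-21 (adjusted p = 2.10e-05) and 1.02 ± 0.14 for rps-27 (adjusted p = 4.66e-05). No member rose past the stricter rule of the study (15.5% of all genes). In share of counts the 4 degron libraries were 0.390 points above the 8 seam libraries, which did not pass the exact permutation test (two-sided, adjusted p = 0.547 over 6 such tests). Evenness was 0.00239 higher (adjusted p = 0.0444, exact permutation test) and the log2 ratio of large to small subunit levels changed by -0.0507 (adjusted p = 0.0121, exact permutation test), and both passed. All 6 tests shuffled the 4 degron and 8 seam libraries freely, across auxin and genotype (495 arrangements), and not within genotype. Strain, tissue and experiment cannot be told apart in them.

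Within the degron experiment no member was called for auxin. None of the 73 was called by edgeR and none had an unadjusted p under 0.05 (1.79% of all genes higher and 1.64% lower), and DESeq2 called none. Without replicate 2 of the group without auxin 1 member was called higher. The median log2 change was -0.07 beside 0.00 for all genes. The members ranged from -0.23 (rpl-25.1) to 0.30 (rpl-11.1), and the smallest adjusted p was 0.659. For rps-8, at rank 4 among the members in both degron groups, the level was 4006 and 4052 RPKM without auxin and 4239 and 3783 RPKM with auxin, so the groups overlapped.

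In muscle of the 4 genotypes no member was called in any contrast by edgeR with TMM, and DESeq2 called none in either single mutant against N2. In met-2 against N2, none was called and none had an unadjusted p under 0.05 (2.97% of all genes higher and 0.229% lower), although 69 of 73 fitted changes were negative (median -0.25 beside -0.02 for all genes). In set-25 against N2, none was called or had an unadjusted p under 0.05 (0% of all genes higher and lower; median 0.04 beside 0.02). In the double mutant against N2, none was called, 13 had an unadjusted p under 0.05, all lower, and the smallest adjusted p was 0.140 (3.73% higher and 0.589% lower); the median was -0.35 beside -0.01. Without the filter on low counts 7 members were called lower, and DESeq2 called none. The double mutant libraries lay below both N2 libraries in CPM for 48 members (28.3% of all genes).

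Against set-25 muscle the double mutant gave 0 calls with edgeR, 17 members with an unadjusted p under 0.05, all lower, and 1 call with DESeq2 (3.12% of all genes higher, 0.458% lower). Against met-2 muscle it gave 0 calls, none at an unadjusted p under 0.05 and none with DESeq2 (0% higher, 0.0218% lower). These contrasts share their N2 or double mutant libraries and are not independent of one another. The median member of the double mutant changed by -0.42 against set-25 and by -0.14 against met-2.

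**Figure D4:**
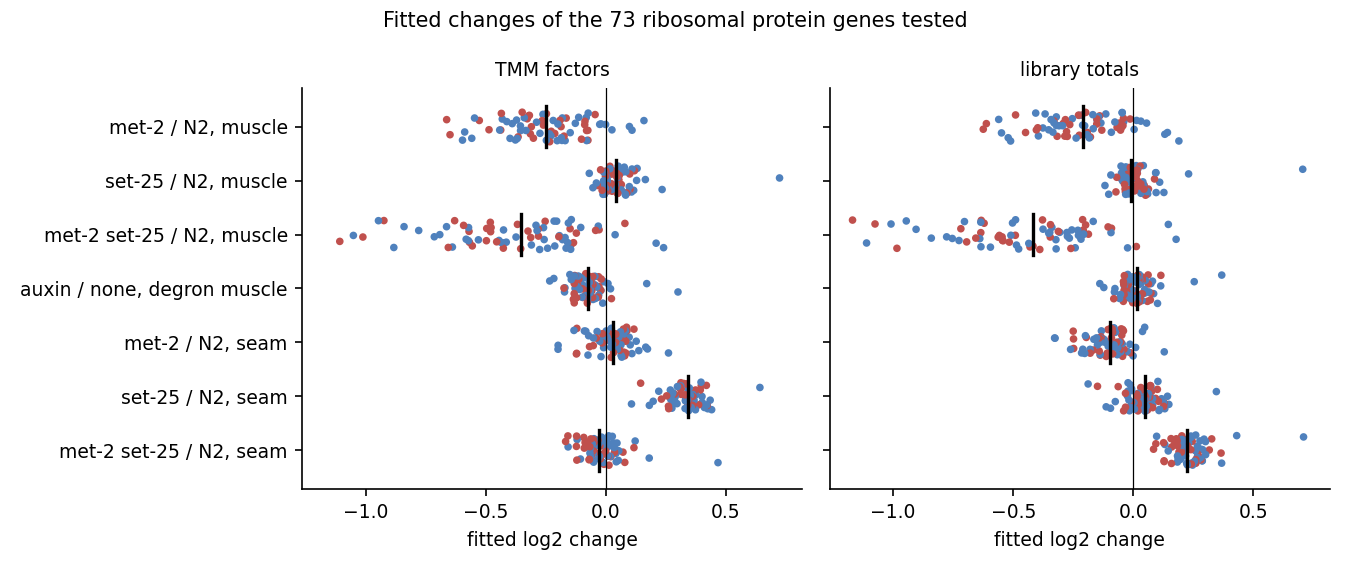
Fitted log2 change of the 73 tested ribosomal protein genes in 7 contrasts within a tissue (edgeR), with TMM factors (left) and library totals (right); blue points are large and red points small subunit genes, heavy bars mark the median of the members, and vertical jitter carries no value. The contrasts are each mutant against N2 in muscle and in seam cells, and auxin. Among these 7, set-25 seam cells have the highest median with TMM (0.34, and 0.05 with library totals) and double mutant muscle the lowest (-0.35 and -0.42).

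In seam cells, loss of set-25 came with higher calls. With TMM, 15 members rose in set-25 relative to N2 and none fell (12.3% of all genes higher, 18.9% lower), 11 of the large and 4 of the small subunit, and the median was 0.34 beside -0.05 for all genes. The named members were rpl-11.1 (0.64 ± 0.16, SE, adjusted p = 0.0164), rpl-18 (0.44 ± 0.13, adjusted p = 0.0285) and rpl-17 (0.43 ± 0.14, adjusted p = 0.0418). With library totals no member was called (3.4% of all genes higher, 24.9% lower), and the medians were 0.05 and -0.34. The level of rpl-18 was 2030 and 1835 RPKM in N2 seam cells and 2182 and 2100 RPKM in set-25 seam cells. The TMM count was 1 without N2 replicate 1, 0 without N2 replicate 2, 1 without either met-2 replicate or set-25 replicate 1, 48 without set-25 replicate 2 and 9 without double mutant replicate 2. DESeq2 called more members than the 15 of edgeR, and its count is given below with the other processing choices.

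In met-2 seam cells no member was called and none had an unadjusted p under 0.05 (6.11% of all genes higher, 8.39% lower; median 0.03 beside -0.03), nor did DESeq2 call any. In double mutant seam cells against N2, edgeR with TMM called 0, with 1 member at an unadjusted p under 0.05 and none called by DESeq2 (5.15% higher, 5.96% lower; median -0.03 beside 0.03). With library totals (9.73% of all genes higher, 2.7% lower) 2 members rose, rpl-11.1 by 0.71 (adjusted p = 0.0297) and rpl-24.2 by 0.43 (adjusted p = 0.0409), and the median was 0.22 beside 0.28 for all genes. Both double mutant libraries lay above both N2 libraries in CPM for 64 members, where 48.4% of all genes did so.

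Against set-25 seam cells the double mutant had 43 members lower and none higher with TMM, 21 large and 22 small subunit genes (30.2% of all genes higher, 21% lower; median -0.37 beside 0.21). With library totals none was lower and 3 were higher (47.1% of all genes higher, 6.47% lower), and the medians were 0.17 and 0.74. The TMM count was 6 without set-25 replicate 1, 8 without double mutant replicate 2, 23 without double mutant replicate 1, 27 and 28 without a met-2 replicate and 60 without set-25 replicate 2. Against met-2 seam cells 1 member rose, rpl-24.2 (0.38 ± 0.11, adjusted p = 0.0356; 15% of all genes higher, 11.7% lower), with 24 higher by library totals (30.4% of all genes higher, 5.61% lower). It was called in none of the fits that left out N2 replicate 1 or 2, met-2 replicate 1 or 2, or double mutant replicate 1 or 2.

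Whether a genotype acted differently on the members in muscle and in seam cells was tested with an interaction term over 16 libraries. No member was called for met-2 (1.56% of all genes higher, 0.574% lower), set-25 (4.26% and 1.56%) or the double mutant (1.42% and 0.776%). At an unadjusted p under 0.05 there were 0, 1 and 6 members, all lower, and DESeq2 called 0, 0 and 1. The smallest adjusted p was 0.0570, for rpl-24.2 in the double mutant (-1.07 ± 0.27).

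Of the ribosomal proteins encoded by pairs of genes, the rpl-11 pair differed most between groups. Both genes encode uL5, which holds the 5S RNA in the large subunit. The level of rpl-11.1 (WBGene00004422) was 10.7 and 10.3 RPKM in N2 muscle, 97.3 and 66.4 in N2 seam cells, 102 and 199 in degron muscle without auxin, 224 and 165 with auxin, and 660 and 696 in non-muscle cells. The level of rpl-11.2 was 837 and 1087 RPKM in N2 muscle, 848 and 1203 in non-muscle cells, 4145 and 3618 in N2 seam cells and 3861 and 3725 in degron muscle without auxin. Thus rpl-11.1 made up 1.10% of the pair in N2 muscle, 2.05% in N2 seam cells, 3.83% in degron muscle without auxin, 4.89% with auxin and 40.2% in non-muscle cells (43.8% and 36.6% in the 2 libraries). No other group came near the non-muscle cells.

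The log2 ratio of rpl-11.1 to rpl-11.2 was -6.32 ± 0.40 (SD, n = 8) in genotype muscle and -5.27 ± 0.24 (SD, n = 8) in seam cells, a difference of -1.05 (exact permutation test within genotype, two-sided, adjusted p = 0.00231 over 3 pairs). In degron muscle it averaged -4.51, which was 0.76 above seam cells (adjusted p = 0.0303 over 6 added tests). In N2 muscle against non-muscle cells rpl-11.1 fell by 4.51 ± 0.18 on the log2 scale (adjusted p = 3.82e-05), while the fitted change of rpl-11.2 was 1.40 ± 0.25 with TMM (adjusted p = 0.00438) and -0.09 with library totals. The 2 groups overlapped in CPM for rpl-11.2.

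A list of 13 germline markers moved with rpl-11.1 in part. They summed to 3885 and 2795 CPM in non-muscle cells, where 12 of 13 were over 5 CPM, and to 237 and 158 CPM in N2 muscle, where 3 of 13 were. In met-2 and double mutant muscle, however, the same markers summed to 2629 and 2691 CPM and to 2779 and 2714 CPM, while rpl-11.1 was at 10.5 and 13.5 RPKM and at 8.65 and 8.67 RPKM, as low as in N2. Degron muscle had 338 and 456 CPM of these markers without auxin and 879 and 855 CPM with auxin. The part of germline cells in the level of rpl-11.1 was not tested.

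The rpl-25 pair, which encodes uL23 at the mouth of the exit tunnel, was near balance in every group except genotype muscle. The log2 ratio of rpl-25.1 to rpl-25.2 was 1.53 ± 0.25 (SD, n = 8) in muscle, where all 8 libraries lay between 1.19 and 1.97, and 0.18 ± 0.10 (SD, n = 8) in seam cells, between 0.06 and 0.32 (difference 1.35, exact permutation test, two-sided, adjusted p = 0.00231). It was 0.02 in degron muscle and 0.03 in non-muscle cells. In RPKM, rpl-25.1 was at 572 and 910 in N2 muscle and at 1249 and 1191 in degron muscle without auxin, and rpl-25.2 at 211 and 305 and at 1124 and 1123. Degron muscle and seam cells differed by -0.15 in this ratio, which did not pass the test (adjusted p = 0.0576 over 6 added tests).

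The rpl-24 pair is of unequal kind. rpl-24.1 encodes the ribosomal protein eL24, whereas rpl-24.2 encodes the relative of yeast Rlp24, a factor of large subunit assembly. The log2 ratio of rpl-24.1 to rpl-24.2 was 3.98 ± 0.30 (SD, n = 8) in muscle and 4.31 ± 0.20 (SD, n = 8) in seam cells (difference -0.34, exact permutation test, two-sided, adjusted p = 0.0370), 4.41 in degron muscle and 3.03 in non-muscle cells. This test did not pass without either replicate of N2 or set-25 muscle or of met-2 or set-25 seam cells, with an adjusted p up to 0.0710 (exact permutation test) without N2 muscle replicate 1. In the double mutant the ratio lay above N2 in muscle (4.51 and 4.35 against 3.68 and 3.77) and below N2 in seam cells (3.97 and 4.09 against 4.27 and 4.28). In both single mutants its mean lay above N2 in both tissues, at 3.89 (met-2) and 3.87 (set-25) against 3.73 in muscle, and at 4.51 (met-2) and 4.45 (set-25) against 4.27 in seam cells. The level of rpl-24.2 was 25.7 and 31.5 RPKM in N2 muscle and 13.1 and 17.5 RPKM in double mutant muscle, and 118 and 111 RPKM in N2 seam cells and 161 and 148 RPKM in double mutant seam cells. The double mutant libraries were below both N2 libraries in muscle and above both in seam cells.

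**Figure D5:**
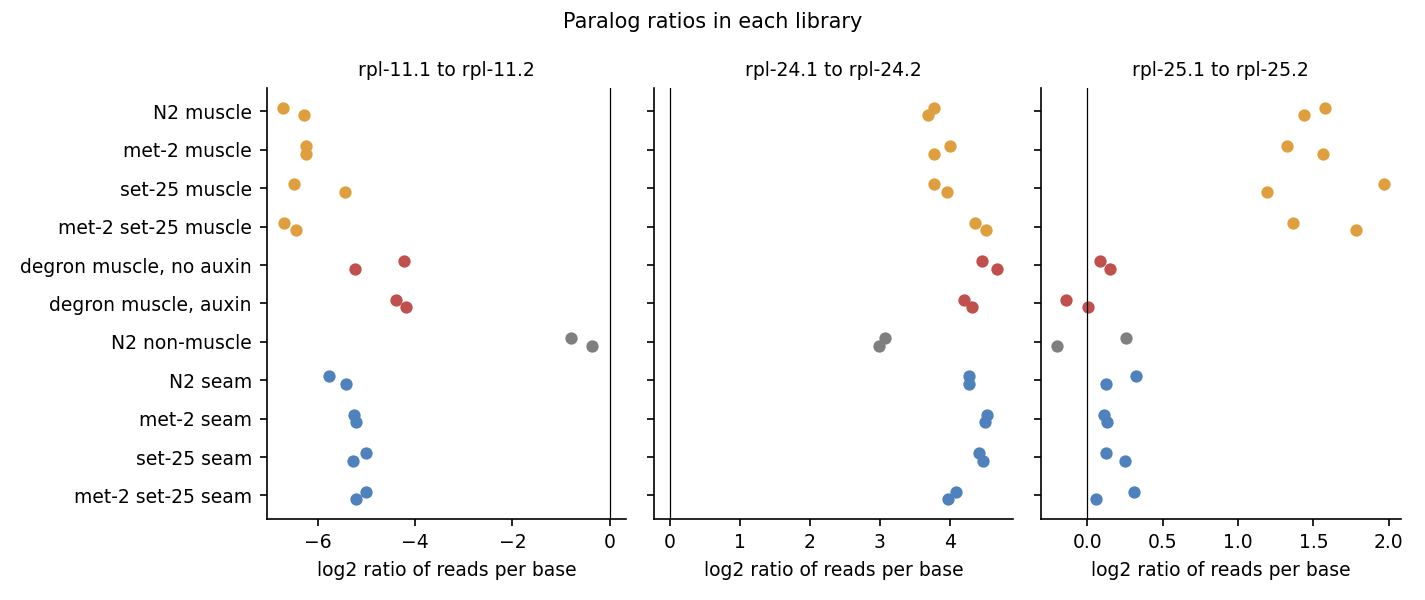
Log2 ratio of reads per base between the 2 genes of each ribosomal protein paralog pair in every library, by group; points are libraries and the thin line marks equal levels. The rpl-11 ratio is near 0 only in non-muscle cells (-0.36 and -0.79), the rpl-25 ratio is above 1 only in muscle of the 4 genotypes, and the rpl-24 ratio is above 2.5 in all libraries.

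Values for other genes of the translation machinery varied with the gene and the scaling. Of 7 other ribosomal or ribosome-bound proteins tested, 3 fell in N2 muscle relative to N2 seam cells with TMM (37.6% of all genes lower), namely the ubiquitin fusions ubl-1 (-1.79) and ubq-2 (-1.01) and the stalk protein rla-2 (-1.32). With TMM 1 rose (25% of all genes higher), rpl-7A, at 0.89, but its change was -0.02 with library totals. In that scaling ubl-1 was at -2.71, rla-2 at -2.24 and ubq-2 at -1.93. The genes not called with TMM, rack-1, rla-0 and rla-1, were at -0.72, -0.67 and -0.62 there. Of 69 mitochondrial ribosomal protein genes 50 rose and none fell with TMM, with a median of 1.23 beside -0.64 for all genes (0.32 beside -1.55 with library totals). Of 8 elongation factor genes 6 rose and 1 fell with TMM, and their median of 0.88 turned to -0.04 with library totals.

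In set-25 seam cells, with 12.3% of all genes higher and 18.9% lower, 23 of 32 initiation factor genes and 11 of 69 mitochondrial ribosomal protein genes rose with TMM and none fell. The median initiation factor gene was at 0.46 beside -0.05 for all genes (0.17 beside -0.34 with library totals), and the median mitochondrial one at 0.19 (-0.10 with library totals). In double mutant seam cells, where no cytosolic ribosomal protein gene was called with TMM, 15 of 23 genes of ribosome biogenesis and 6 of 10 genes of RNA polymerases I and III rose and none fell (5.15% of all genes higher, 5.96% lower). Their medians were 0.69 and 0.64 beside 0.03 for all genes, and 0.93 and 0.89 beside 0.28 with library totals.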

How the data were processed

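By the labels and methods, reads had been aligned to ce10, and the authors deposited raw counts per gene of uniquely aligned reads in WormBase exons, on the annotated strand, with the exonic width; RPKM and shares were computed here from these counts and widths. No gene was left out of the library totals. Names came from a WBcel235 annotation, used for symbols and chromosomes only, and 19182 genes had one. The members and gene lists were chosen with earlier results of these data known. Contrasts were fitted with edgeR 4.0.16 in R 4.3.3 (filterByExpr, TMM, glmQLFit, glmQLFTest), on the 8 libraries of a tissue, on 4 for auxin and for N2 muscle against non-muscle cells, on 16 across tissues and on 12 for degron muscle against N2; the latter fits join tables. Single values were compared with exact permutation tests (scipy 1.17.1). Paralog ratios used a pseudocount of 0.5 counts. The rule of the study (adjusted p under 0.01 and a change over 2-fold with a pseudocount of 8), DESeq2 1.42.0, other scalings, no filter and a replicate block were alternatives. The named members were those with a paralog number, the 3 largest rises and falls per contrast among called members whose groups did not overlap, and the 5 highest and 5 lowest in N2 muscle and N2 seam cells. The fit was tested on simulated data. Same-numbered replicates did not deviate together throughout (correlations -0.20 to 0.12), so they were not treated as pairs.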

Additional observations from a re-analysis of the deposited data

Results flagged for a closer look

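For 3 summaries of these genes, taken without TMM scaling, the double mutant differed from N2 in opposite directions in the 2 tissues. The share of counts on ribosomal protein genes in the double mutant was 0.631 percentage points below N2 in muscle (a change of -0.631) and 1.88 points above N2 in seam cells. The log2 ratio of rpl-24.1 to rpl-24.2 was 0.71 higher in double mutant than in N2 muscle and changed by -0.25 in seam cells. For 41 members both double mutant muscle libraries lay below both N2 muscle libraries in CPM while both double mutant seam libraries lay above both N2 seam libraries, a condition met by 11.8% of all genes of at least 10 counts on average. In the seam contrast with library totals the median member changed by 0.22 and the median gene by 0.28. With TMM the median member changed by -0.03 in seam cells, where 47 of 73 changes were negative, and by -0.35 in muscle. The difference between tissues was not tested for the share and for the ratio; for the members the interaction test called none (smallest adjusted p = 0.0570, edgeR).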

How the results depend on the processing

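Counts are of members called. Where the share of all genes called under a setting is not given, the count cannot be set against the rate of all genes. Under the study's own rule the counts were 0 for set-25 against N2, for the double mutant against set-25 and against met-2 in seam cells and for degron muscle against seam cells, and N2 muscle against non-muscle had 1, rpl-11.1, which was lower. Without the low-count filter they were 7 for the double mutant against N2 and against set-25 in muscle, 1 and 0 for the double mutant against N2 and met-2 in seam cells, and 6 for its interaction. DESeq2 called 1, 50, 0 and 1 for the double mutant against set-25 in muscle, set-25 against N2 and the double mutant against met-2 in seam cells, and the interaction, and its size factors in edgeR gave 44 and 0 for the middle pair. With library totals set-25 against N2 in seam cells gave 0, the double mutant 2, 3 (turned to higher) and 24 against N2, set-25 and met-2, muscle against non-muscle 70 (turned to lower), the interaction 1 and degron against seam 12. Scaled to the members' own sum, set-25 against N2 gave 0, and the double mutant 2 (turned) against set-25 and 2 against met-2. Muscle against non-muscle gave 4 (2 higher, 2 lower) on this scale, and N2 muscle against N2 seam cells 9 higher and 34 lower. Degron muscle gave 38 against N2 muscle (30 higher, 8 lower) and 13 against seam cells (9 higher, 4 lower). Fitted on the compared groups alone, set-25 against N2 in seam cells gave 0.

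Leaving out 1 replicate in turn gave 0 to 1 and 0 to 5 for the double mutant against N2 and set-25 in muscle, 0 to 48 for set-25 against N2, 0 to 1, 6 to 60 and 0 to 1 for the double mutant against N2, set-25 and met-2 in seam cells, 0 to 1 for auxin and for the interaction, 5 to 67 for muscle against non-muscle, 51 to 64 for muscle against seam cells, 70 to 71 for degron against N2 muscle and 59 to 72 for degron against seam cells. The difference in subunit ratio ran from 0.0249 to 0.0446, with p up to 0.140 (exact permutation test). That in the rpl-24 ratio ran from -0.41 to -0.29 and that in share from -8.22 to -7.74. Degron libraries in place of genotype muscle (chosen after seeing the data) turned the differences from seam cells to 0.390 points for share, 0.00239 for evenness, -0.0507 for the subunit ratio, 0.76 for the rpl-11, 0.10 for the rpl-24 and -0.15 for the rpl-25 ratio.

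With the replicate number as a block, muscle against non-muscle gave 61 called members, set-25 against N2 in seam cells 11 and the double mutant against set-25 38. For auxin the numbers ran crossed (correlation -0.20), and the crossed block called 0.

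Changes in share between genotypes were not tested, since the exact test of 2 against 2 libraries cannot pass, and with each tissue in its own experiment no comparison across tables separates tissue from sort or library preparation. Depth limits few members: apart from rpl-42, the fewest counts of a member in a library were 73, for rpl-11.1.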
